A study of Homo sapiens with 4 samples.

Results

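The 8 genes described here lie side by side in a zinc finger cluster on chromosome 7 and were followed in OCI-AML3, a human cell line from acute myeloid leukaemia in which mutant NPM1 protein sits in the cytoplasm. They are ZNF736, ZNF680, ZNF107, ZNF138, ZNF273, ZNF117, ERV3-1 and ZNF92, 8 of the 67062 rows of the count table. They were taken by name. The cluster came up because ZNF117 and ERV3-1 were higher in PIG-LONA in these same libraries, and the other 6 were added for their position. Differences of the 8 genes between the groups are therefore given as a description, with errors and with no test.

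The cells carried 1 of 2 retroviral vectors. In PIG-LONA cells the pMSCV-PIG vector drove the long noncoding RNA LONA, and in PIG-EMPTY cells the same vector had no insert. Cells of both groups had thus been infected with a retrovirus that also encodes puromycin resistance and GFP, and both were sorted for GFP. Each vector was introduced in 2 independent transductions of this single line, giving 2 libraries a group and 4 in all, from poly(A) RNA. Total counts ran from 29819572 to 38358442 a library. The PIG-LONA libraries differed more from each other than the PIG-EMPTY libraries did, with a chi-square per gene of 4.67 against 1.81 (counting noise alone would give 1). Of 8 markers of a myeloid leukaemia line, none was at 0, and their summed level was 1341 to 1415 CPM in PIG-LONA and 1382 to 1430 CPM in PIG-EMPTY. The largest counts were those of ELANE, CEBPA and SPI1, so the sum says little of the smaller markers. MPO had only 63 to 107 counts a library. LYZ had 779 and 1042 counts in PIG-LONA and 1575 and 1110 in PIG-EMPTY. Here CPM is the count divided by the scaled library total in units of 1000000. The 3 T cell and 3 red cell markers had no counts in any library. The B cell, epithelial and fibroblast sets of markers each summed to at most 1.07 CPM in PIG-LONA and 1.21 CPM in PIG-EMPTY. The level of LONA itself was not analysed here, so the labels stand without that check.

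C2H2 zinc finger proteins bind DNA through repeated fingers, and the large KRAB subgroup recruits the corepressor TRIM28 and the histone methyltransferase SETDB1 to silence chromatin. Many KRAB zinc finger genes arose by tandem duplication and sit in clusters, and many of their proteins bind transposable elements, including endogenous retroviruses. ERV3-1 is the envelope gene of an ancient retroviral insertion in the human genome that is still transcribed. It lies just upstream of ZNF117 on the same strand, and transcripts that read from one into the other are known (RefSeq lists a readthrough gene, ERV3-1-ZNF117).

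In GENCODE release 29 on GRCh38, the assembly also called hg38, ZNF117 spans 64971776 to 65006684 of chromosome 7 and ERV3-1 spans 64990809 to 65006743, both on the minus strand. The gene spans overlap by 15876 bases, and exons of both cover 2 stretches. The stretch from 65006541 to 65006684 (144 bases) is a first exon of ERV3-1 transcripts and of a ZNF117 transcript with a retained intron. The stretch from 64990809 to 64991036 (228 bases) is the end of the protein-coding ERV3-1 transcript and lies in the first exon of the longest protein-coding ZNF117 transcript. Together the 372 bases make up 8.13% of the exonic length of ERV3-1 (4574 bases) and 3.48% of that of ZNF117 (10691 bases). Reads from these stretches cannot be given to either gene with certainty and may have been left out of both rows. Reads of a readthrough transcript fall on both genes. ZNF273 shares 771 bases, 8.91% of its exonic length, with an antisense gene on the opposite strand that had 0 and 0 counts in PIG-LONA and 2 and 0 in PIG-EMPTY. With the strand setting not stated, reads of the 2 cannot be told apart there. ZNF107 shares 4 bases with the microRNA gene MIR6839, and ZNF736, ZNF680, ZNF138 and ZNF92 share no exonic base with another gene of that release. Along the chromosome, ZNF736, ZNF680, ZNF107, ZNF138 and ZNF273 lie to the left of ZNF117. Their lowest coordinates are 664.3, 451.9, 305.7, 177.4 and 101.6 kb from that of ZNF117, and that of ZNF92 is 402.0 kb to the right. All distances between genes given here are between lowest coordinates, whatever the strand. For a gene on the minus strand, such as ZNF117, the lowest coordinate is where the gene ends.

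**Figure D1:**
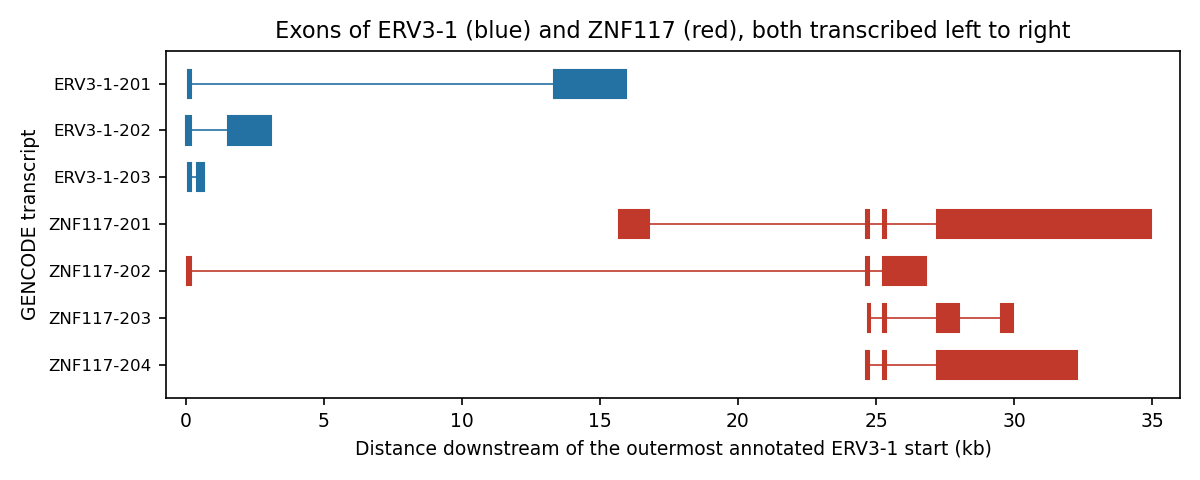
Exons (boxes) and introns (lines) of the 7 GENCODE transcripts of ERV3-1 (blue) and ZNF117 (red), by distance in kb downstream of the outermost annotated ERV3-1 start. The second ZNF117 transcript from the top begins in the first exon of ERV3-1, and the top one begins inside the last exon of the protein-coding ERV3-1 transcript.

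The stretches upstream of the genes are shown because most of them resemble each other, the ERV3-1 start included. The RefSeq promoter table (GRCh38.p14) held 10 windows for the 8 genes. Each printed line gives the 120 bases just before the outermost annotated exon base at that start, read 5′ to 3′ on the gene's strand, and capitals mark CCAAT, the letters of the CCAAT box.
ERV3-1 (chr7:65006744-65006863, minus strand): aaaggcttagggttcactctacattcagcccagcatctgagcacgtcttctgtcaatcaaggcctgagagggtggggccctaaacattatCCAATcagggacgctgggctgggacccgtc
ZNF273 (chr7:64903127-64903246, plus strand): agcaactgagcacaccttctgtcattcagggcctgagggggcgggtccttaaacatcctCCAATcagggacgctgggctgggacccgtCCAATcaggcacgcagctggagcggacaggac
ZNF138 (chr7:64794268-64794387, plus strand): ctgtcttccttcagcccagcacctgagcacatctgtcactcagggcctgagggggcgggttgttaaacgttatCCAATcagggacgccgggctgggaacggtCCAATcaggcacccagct
ZNF107 (chr7:64665963-64666082, plus strand): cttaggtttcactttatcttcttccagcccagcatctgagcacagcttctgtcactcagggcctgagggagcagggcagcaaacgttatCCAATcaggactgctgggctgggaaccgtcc
ZNF680 (chr7:64563107-64563226, minus strand): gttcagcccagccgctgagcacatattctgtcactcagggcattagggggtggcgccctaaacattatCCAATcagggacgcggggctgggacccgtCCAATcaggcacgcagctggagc
ZNF92 (chr7:65373679-65373798, plus strand): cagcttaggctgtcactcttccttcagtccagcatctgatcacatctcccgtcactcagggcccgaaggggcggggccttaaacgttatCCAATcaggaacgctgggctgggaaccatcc
In the 250 bases upstream of the RefSeq start, 7 windows held CCAATCA on the gene's strand 2 times each: those of ZNF736, ZNF680, ZNF107, ZNF138, ZNF92, 1 of 2 of ZNF273 and 1 of 2 of ERV3-1. Among all 35116 RefSeq windows, 0.450% held it at least 2 times, and among the 230 windows of tested zinc finger genes of chromosome 19, 7.83% did. These shares are no test, because the 7 windows were set apart by this same motif and count. The 7 windows also resemble each other and are not independent. The shorter CCAAT was present at least 2 times on the gene's strand in 3.63% of all windows, and on either strand at least once in 32.0%. For the ERV3-1 window the boxes began at positions -86 and -57 from the start, and for ZNF680, ZNF138, ZNF273 and ZNF92 at -87 and -58. In ZNF107 they began at -81 and -52, and in ZNF736 at -58 and -30. The second box of ERV3-1, ZNF107 and ZNF92 and both boxes of ZNF736 fall in or at the edge of annotated exons and are not printed. The window of the internal ZNF117 start, which lies within ERV3-1, had no CCAAT on the gene's strand. The reverse letters, ATTGG, occurred there 1 time. Aligned over 250 bases, the ERV3-1 window was 59.7% to 80.5% identical to the other 6 (median 78.85%). The lowest value was with ZNF736, and over all 21 pairs the range was 54.7% to 85.3%. Only the 7 windows that held CCAATCA 2 times were aligned. No other windows were aligned as a background, so the identity that unrelated windows would show was not measured. A match of letters is no evidence of binding.

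ZNF117 and ERV3-1 were higher in PIG-LONA cells, and the 6 zinc finger genes around them were at nearly the same level in both groups. ZNF117, a C2H2 zinc finger gene, had 2071 and 2879 counts in the PIG-LONA libraries and 1328 and 1398 in the PIG-EMPTY libraries. Scaled to library size, that is 69.2 and 74.9 CPM in PIG-LONA and 44.6 and 43.0 CPM in PIG-EMPTY. Both PIG-LONA libraries lay above both PIG-EMPTY libraries, and the gap between the groups was larger than the gap within either. The means were 72.0 ± 4.01 and 43.8 ± 1.10 CPM (SD, n = 2 each), a log2 fold change of 0.72 ± 0.05 (SE), or 1.65-fold. In bulk RNA, a change in the number of expressing cells and a change in RNA per cell cannot be told apart.

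ERV3-1, the retroviral envelope gene, had 647 and 1008 counts in PIG-LONA and 451 and 494 in PIG-EMPTY. Its level was 21.6 and 26.2 CPM in PIG-LONA and 15.1 and 15.2 CPM in PIG-EMPTY. The groups did not overlap, but PIG-LONA replicate 2 stood well above replicate 1, by 0.28 on the log2 scale, a gap larger than that of 82.9% of tested genes or equal to it. The means were 23.9 ± 3.25 and 15.2 ± 0.05 CPM (SD, n = 2 each), a log2 fold change of 0.67 ± 0.08 (SE), or 1.59-fold. Without PIG-LONA replicate 2 it was 0.51. Of all 15918 genes tested, 1.09% had a log2 fold change at least as high as that of ERV3-1, and ZNF117 ranked 138th from the top.

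**Figure D2:**
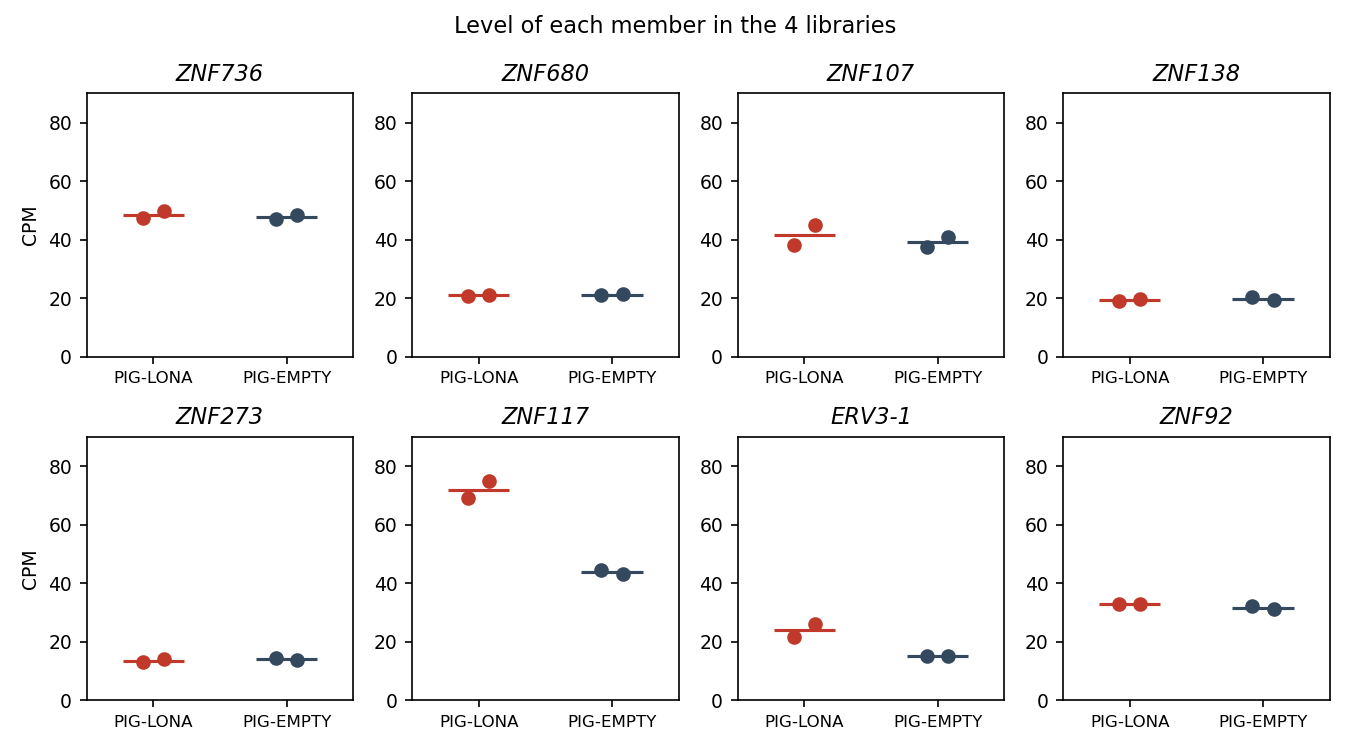
CPM of each gene in the 4 libraries, in order along the chromosome, with PIG-LONA (red) left of PIG-EMPTY (grey-blue); points are libraries and lines are means of 2. Only ZNF117 and ERV3-1 show groups that stand clearly apart, at 72.0 and 43.8 CPM and at 23.9 and 15.2 CPM.

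Counts added over ZNF117 and ERV3-1, a sum that does not depend on how assigned reads were split between them but cannot recover reads assigned to neither, gave a log2 fold change of 0.70 ± 0.05 (SE). The share of ERV3-1 in the counts of the pair was 23.8% and 25.9% in PIG-LONA and 25.4% and 26.1% in PIG-EMPTY. The Wilson 95% intervals, which cover counting error only, were 22.2% to 25.4%, 24.6% to 27.3%, 23.4% to 27.4% and 24.2% to 28.1% in the same order. The shares of the groups overlapped, so no difference in the balance between both genes was detectable with 2 libraries a group. Within the cluster as a whole, the pair took 34.6% (33.6% to 35.7%) and 35.7% (34.8% to 36.6%) of the counts of the 8 genes in PIG-LONA. In PIG-EMPTY it took 25.8% (24.7% to 26.8%) and 25.0% (24.0% to 26.0%). The other 6 genes together held 171.4 and 182.3 CPM in PIG-LONA and 172.2 and 174.9 CPM in PIG-EMPTY, values that overlap.

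**Figure D3:**
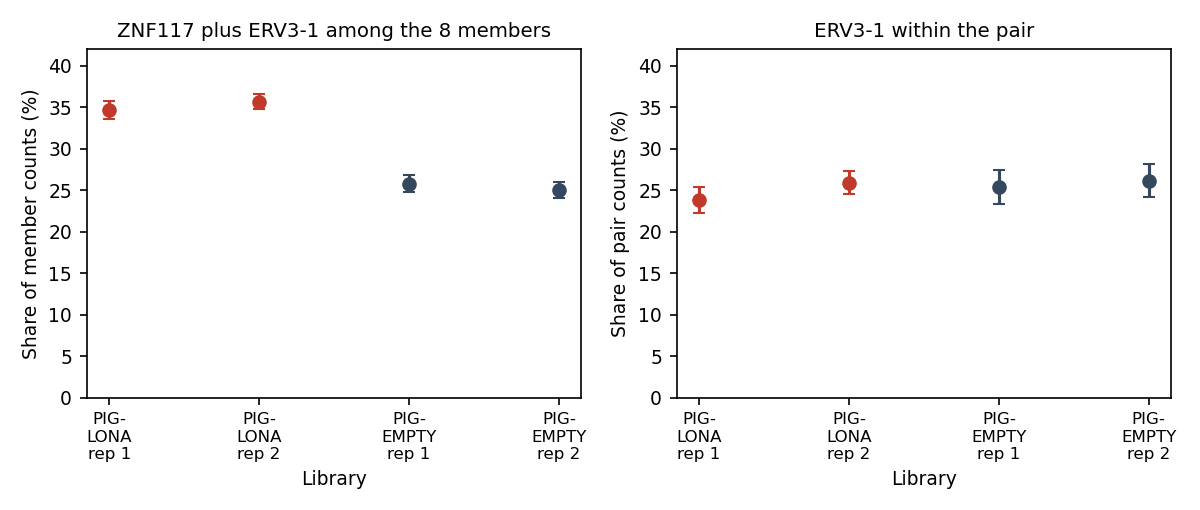
Left, share (%) of the counts of all 8 genes that fell on ZNF117 plus ERV3-1; right, share (%) of the counts of that pair that fell on ERV3-1, per library with Wilson 95% intervals, PIG-LONA in red and PIG-EMPTY in grey-blue. The left share is 34.6% and 35.7% in PIG-LONA and 25.8% and 25.0% in PIG-EMPTY, while the right shares overlap between 23.8% and 26.1%.

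ZNF273, the nearest zinc finger gene on the other strand, had 389 and 540 counts in PIG-LONA and 427 and 450 in PIG-EMPTY. Its level was 13.0 and 14.0 CPM in PIG-LONA and 14.3 and 13.9 CPM in PIG-EMPTY, so the groups overlapped (log2 fold change -0.05 ± 0.08, SE). ZNF138 was at 18.9 and 19.8 CPM in PIG-LONA and 20.4 and 19.3 CPM in PIG-EMPTY (-0.03 ± 0.07). Its groups overlapped as well. ZNF680 was at 20.8 and 21.0 CPM in PIG-LONA and 21.0 and 21.3 CPM in PIG-EMPTY (-0.01 ± 0.07), the smallest difference of the 8 genes.

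ZNF107 was at 38.2 and 44.9 CPM in PIG-LONA and 37.3 and 40.9 CPM in PIG-EMPTY (0.09 ± 0.07). In both groups replicate 2 was the higher one, and the 2 PIG-LONA libraries were 0.23 apart on the log2 scale. Its value rested on which of them was used, at 0.20 without PIG-LONA replicate 1 and at -0.03 without PIG-LONA replicate 2. ZNF736, the most distant member, was at 47.5 and 49.7 CPM in PIG-LONA and 47.0 and 48.5 CPM in PIG-EMPTY (0.03 ± 0.05). ZNF92, on the far side of ERV3-1, was at 33.0 and 32.9 CPM in PIG-LONA and 32.2 and 31.2 CPM in PIG-EMPTY (0.06 ± 0.06). Its groups did not overlap, but the gap between them was smaller than the spread within PIG-EMPTY.

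All 8 genes passed the filter on low counts. In the test across all genes (edgeR quasi-likelihood, Benjamini-Hochberg adjusted p under 0.05), 2 of the 8, ZNF117 and ERV3-1, were past the threshold, against a background of 6.44% of all genes with 2.93% called higher and 3.51% lower. The groups did not overlap in 3 of the 8, against 48.0% of all genes. These counts are given for completeness, since the genes were chosen on this contrast. The 95% intervals of the log2 fold change bound what could have been missed in the other 6. The highest upper bound was 0.23, for ZNF107, and the lowest lower bound was -0.23, for ZNF273. The interval ran from 0.61 to 0.83 for ZNF117 and from 0.49 to 0.84 for ERV3-1. These 2 genes were picked for being higher in these same libraries. Their intervals are therefore no test and may lie too high. The median log2 fold change was 0.04 over the 8 genes and 0.01 over the 6, beside 0.00 over all genes tested.

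Per kilobase of exon, the scale on which genes can be compared, ZNF92 was the highest and ZNF273 the lowest in both groups. ZNF92 had 9.38 ± 0.02 CPM per kb in PIG-LONA and 9.02 ± 0.21 in PIG-EMPTY, and ZNF273 had 1.56 ± 0.09 and 1.63 ± 0.04 (SD, n = 2 each). ZNF117 had 6.74 ± 0.38 CPM per kb in PIG-LONA and 4.10 ± 0.10 in PIG-EMPTY. In PIG-LONA its libraries overlapped those of ZNF138, the second in order at 6.78 ± 0.23. In PIG-EMPTY it stood below ZNF92, ZNF138 (6.96 ± 0.26), ZNF107 (5.46 ± 0.35) and ZNF736 (5.07 ± 0.11), with no overlap with ZNF736. ERV3-1 had 5.23 ± 0.71 CPM per kb in PIG-LONA, overlapping ZNF107 (5.80 ± 0.66) and ZNF736 (5.16 ± 0.16). In PIG-EMPTY it had 3.32 ± 0.01, below ZNF680 (3.79 ± 0.03) and above ZNF273 only. Lengths are unions of all annotated exons, so genes with rarely used long exons are understated.

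Few stretches of these genes are shared with other genes. Of all 50-base runs in the GENCODE transcripts of a gene, the share also found in transcripts of another gene was 0.493% for ZNF107, 0.713% for ZNF138, 1.03% for ZNF92, 1.54% for ZNF736 and 1.64% for ZNF680. It was 3.60% for ZNF273, 4.08% for ZNF117 and 6.10% for ERV3-1. Of the 276 shared runs of ERV3-1, 274 were shared with ZNF117. Copies outside annotated transcripts were not searched.

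Genes around the cluster did not pass the test. Of 203 rows of the table with a lowest coordinate within 5 Mb of that of ZNF117, members left out, 32 were tested. None was called (0 higher and 0 lower in edgeR, 0 with DESeq2 and 0 with limma-voom), and 3 had an unadjusted p under 0.05. Over all 15918 tested genes, 6.44% were called by edgeR and 2971 had an unadjusted p under 0.05. In a list of 32 genes, a count of 0 is therefore not read as a trait of the neighbourhood. Their median log2 fold change was 0.03, and that of the 793 tested genes of chromosome 7 was 0.01. Nearly all tested neighbours lie to the right of ZNF117. Those to the left are pseudogenes with at most 25 counts in any library, so beyond the members that side is hardly covered. The nearest tested rows are pseudogenes. VN1R42P, a vomeronasal receptor pseudogene between ZNF273 and ZNF117, had 11 and 11 counts in PIG-LONA and 11 and 11 in PIG-EMPTY. CCT6P3, a pseudogene of a chaperonin subunit, has its lowest coordinate 66.6 kb to the right of that of ZNF117. It was at 7.45 and 7.41 CPM in PIG-LONA and 7.25 and 6.93 CPM in PIG-EMPTY (0.07 ± 0.11). GTF2IP14, a pseudogene of a general transcription factor gene, was at 0.15 ± 0.22.

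Farther right within 1 Mb, CCT6P1 was at 0.03 ± 0.09, LINC03006 at 0.03 ± 0.19 and VKORC1L1, a vitamin K epoxide reductase gene, at 0.04 ± 0.04. GUSB, the lysosomal beta-glucuronidase gene often used as a reference in PCR, was at 71.4 and 72.0 CPM in PIG-LONA and 65.2 and 66.2 CPM in PIG-EMPTY. Its groups did not overlap, and its log2 fold change of 0.13 ± 0.04 did not pass (edgeR adjusted p = 0.114). GTF2IP5, with 5 and 7 counts in PIG-LONA and 13 and 11 in PIG-EMPTY, had the widest difference of the neighbours, -1.12 ± 0.50, and did not pass either (edgeR adjusted p = 0.225). Whether any neighbour was called depended on the library left out, and the count over all genes moved as well.

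**Figure D4:**
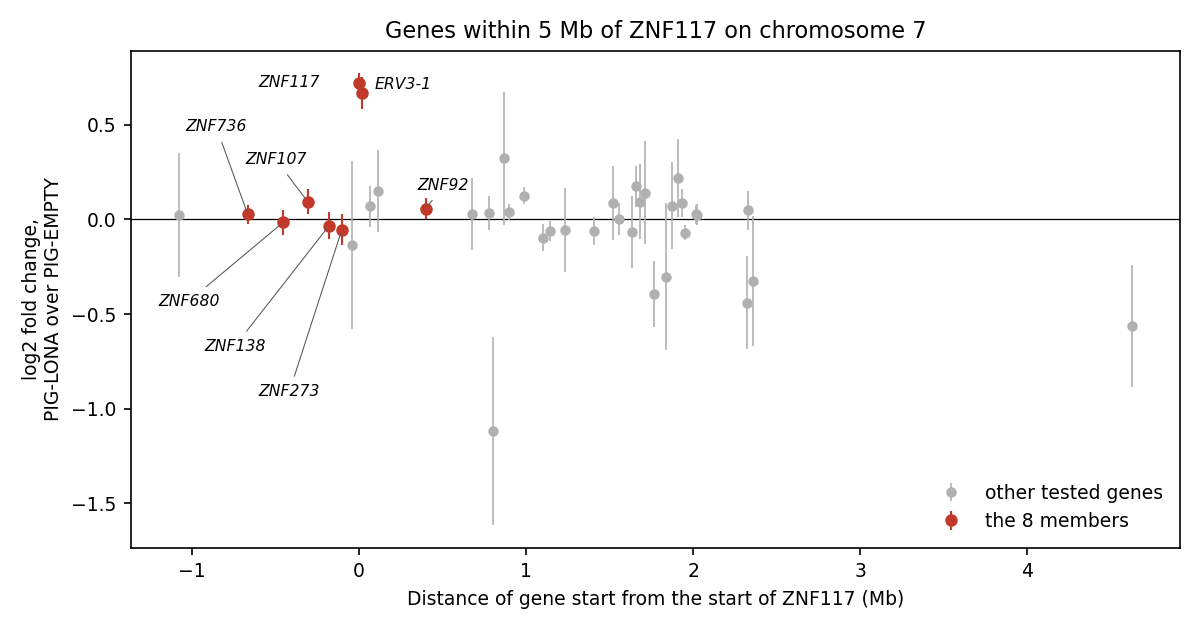
Log2 fold change (PIG-LONA over PIG-EMPTY) with its SE of the 8 members (red) and 32 other tested genes (grey), by distance in Mb from ZNF117. The gene start on the axis is the lowest coordinate of each gene, whatever its strand. ZNF117 and ERV3-1, at 0.72 and 0.67, stand above the other members and the neighbours, whose values lie between -1.12 and 0.32. The neighbours to the left are pseudogenes with at most 25 counts in any library.

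Zinc finger genes elsewhere in the genome are set beside the 6.44% of all tested genes that were called (2.93% higher and 3.51% lower). Of 205 tested zinc finger genes of chromosome 19, which holds the largest human clusters of this family, 2 were higher and 1 lower in PIG-LONA, or 1.46% called, with a median of 0.04. ZNF266 (0.21 ± 0.06, edgeR adjusted p = 0.028) and ZNF529 (0.23 ± 0.07, edgeR adjusted p = 0.0446) rose. ZNF865 fell to 36.6 and 37.1 CPM in PIG-LONA, against 46.8 and 44.8 CPM in PIG-EMPTY (-0.31 ± 0.05, edgeR adjusted p = 0.000765). The count of 3 was 1 with DESeq2 and 1 with all genes of at least 1 count. Over all genes, those settings called 473 and 334, against 1025 in the main fit. The count of 3 also moved with some libraries left out, as did that over all genes.

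Of 241 zinc finger genes on other chromosomes, 11 were higher and 3 lower, or 5.81% called, near the 6.44% of all genes, with a median of 0.05. The 799 tested genes of chromosome 6 had a median of 0.17, and 226 of them were called higher and 14 lower. The list has 18 tested genes there, and they hold 6 of its 11 higher genes. ZNF292 (0.37 ± 0.06) and ZNF318 (0.35 ± 0.06), both on chromosome 6, were each called by edgeR (adjusted p = 0.000327 and 0.000388). ZNF718, on chromosome 4, rose to 26.3 and 27.2 CPM in PIG-LONA, against 20.3 and 20.9 CPM in PIG-EMPTY (0.38 ± 0.06, edgeR adjusted p = 0.000833). ZNF385A, on chromosome 12, fell (-0.29 ± 0.05, edgeR adjusted p = 0.000951). The count of 14 was 7 without chromosome 6 genes, 6 with DESeq2, 4 without the low-count filter, 8 without either PIG-EMPTY library and 34 without PIG-LONA replicate 1.

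The list called corepressor genes here is broad: it holds KRAB corepressors such as TRIM28 and SETDB1 and also general chromatin-silencing and DNA methylation genes. Of its 37 tested genes, 5 were higher and 0 lower, or 13.5% called, with a median log2 fold change of 0.03. Of all genes, 6.44% were called (2.93% higher and 3.51% lower). Calls of the list did not all go up in every setting. Upper-quartile scaling gave 4 higher and 1 lower. A filter of at least 1 CPM in at least 2 libraries gave 5 higher and 1 lower. TRIM28, the scaffold that binds the KRAB domain, was at 0.01 ± 0.03 (edgeR adjusted p = 0.895), and SETDB1, its histone H3 lysine 9 methyltransferase, at -0.01 ± 0.04 (edgeR adjusted p = 0.962). TRIM28, SETDB1 and, below, SUV39H2 were picked out once values were known. The histone methyltransferase gene EHMT2 (0.21 ± 0.04), the deacetylase gene HDAC2 (0.20 ± 0.04) and the histone chaperone gene DAXX (0.16 ± 0.05) rose, with edgeR adjusted p = 0.00219, 0.00229 and 0.0411. All 3 lie on chromosome 6 and were the only tested genes of the list there. Of the 799 tested genes of chromosome 6, 226 were called higher. DNMT1, the maintenance DNA methyltransferase gene, rose to 359 and 373 CPM in PIG-LONA, against 335 and 334 CPM in PIG-EMPTY (0.13 ± 0.04, edgeR adjusted p = 0.0307). SUV39H2, another histone methyltransferase gene, rose too and was at 0.19 ± 0.06 (edgeR adjusted p = 0.0467). The count of 5 was 1 without chromosome 6 genes and 2 with DESeq2, with library totals or without the low-count filter. Over all genes, those settings called 660, 473, 882 and 334 in that order, against 1025 in the main fit. The count of 5 also moved with a library left out, as did that over all genes.

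Genes of retroviral or retrotransposon origin other than ERV3-1 were tested in 14 of 34 rows. None was called (0 by edgeR, DESeq2 and limma-voom), and 2 had an unadjusted p under 0.05. Over all 15918 tested genes, 6.44% were called by edgeR and 2971 had an unadjusted p under 0.05. In a list of 14 genes, a count of 0 is therefore not read as a trait of the list. Their median log2 fold change was -0.04. RTL10 (0.19 ± 0.06, edgeR adjusted p = 0.0574) and ERVK13-1, a transcript of an endogenous retrovirus of the K family (0.19 ± 0.08, edgeR adjusted p = 0.224), had the smallest p. With the replicate number of the labels as a block 1 gene was called, and 1101 over all genes. Whether any gene of the list was called also depended on the library left out.

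**Figure D5:**
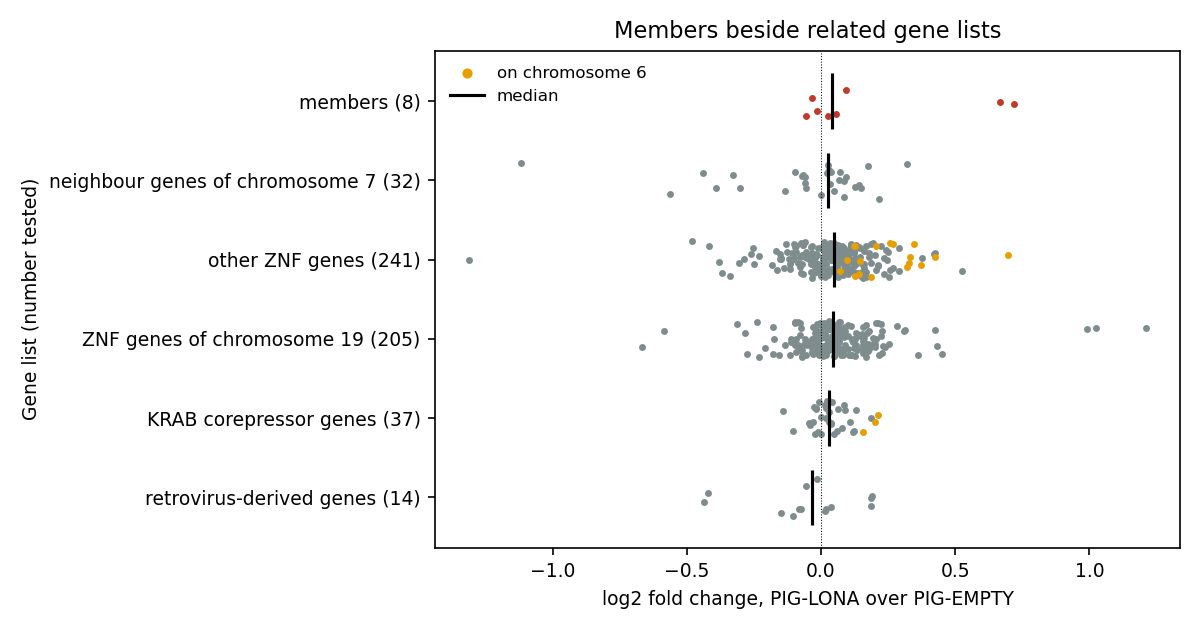
Log2 fold change (PIG-LONA over PIG-EMPTY) of every tested gene of the 8 members and 5 related lists, with medians as bars and chromosome 6 genes in orange. The medians lie between -0.04 and 0.05, and ZNF117 and ERV3-1 are at 0.72 and 0.67. Single genes spread widely, from -0.67 to 1.21 for zinc finger genes of chromosome 19 and from -1.31 to 0.70 for other zinc finger genes.

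The tested genes most like ZNF117 over the 4 libraries, by Euclidean distance of centred log2 CPM, were ADAMTS10 (0.05), TEAD3 (0.06) and TNFAIP8 (0.08). ADAMTS10, a secreted metalloprotease gene on chromosome 19, was at 4.64 and 5.02 CPM in PIG-LONA and 2.92 and 2.74 CPM in PIG-EMPTY. TEAD3, a transcription factor gene on chromosome 6, was at 12.0 and 13.2 CPM in PIG-LONA and 8.13 and 7.57 CPM in PIG-EMPTY. TNFAIP8, on chromosome 5, was at 46.9 and 51.2 CPM in PIG-LONA and 32.2 and 30.5 CPM in PIG-EMPTY. ERV3-1 came 9th of 15917 genes (0.14), and the other 6 members were at distances of 0.65 to 0.78. With 4 libraries in 2 groups, this distance mostly ranks genes by the size of their difference between the groups.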

How the data were processed

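The authors deposited raw counts of reads for each Ensembl gene and library. Tools listed in the submitters' processing notes are STAR 2.5, FastQC 0.11.4 and HTSeq, with hg38 as the build. Not given in the sources used here are the annotation release, the strand setting and the handling of reads that overlap several genes. The library kit is directional, per the labels' protocols.

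Of 67062 rows, 60402 matched a symbol and 58548 had coordinates in GENCODE release 29, whose exons also gave gene lengths. The members and gene lists were chosen with earlier results of these data known. After filterByExpr (minimum count 10, minimum total 15), 15918 genes were tested with the edgeR 4.0.16 quasi-likelihood test in R 4.3.3 (TMM scaling, intercept and group, two-sided, Benjamini-Hochberg adjustment over all tested genes). The standard error is the log2 fold change divided by the root of F, without its sign. Log2 CPM for distances used a prior count of 2. P-values measure the spread between transductions of 1 cell line. The biological coefficient of variation was 2.95%. On simulated counts of this comparison (15686 genes tested), 44.0% of 1.2-fold changes were recovered, 59.2% of 1.5-fold, 84.0% of 2-fold and 93.9% of 4-fold ones, with 11 false calls.

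Beside the members, the text names the 3 genes nearest in pattern to ZNF117, tested neighbours within 1 Mb, and from each list up to 4 called genes with the smallest p, or 2 as values where none was called. TRIM28, SETDB1 and SUV39H2 fall outside this rule. A neighbour without a symbol is not named. Promoter windows came from RefSeq, and DESeq2 1.42.0 and limma 3.58.1 served as alternatives.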

Additional observations from a re-analysis of the deposited data

How the results depend on the processing

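The log2 fold change of ZNF117 ran from 0.66 to 0.77 and that of ERV3-1 from 0.51 to 0.79 over 13 alternatives (3 other scalings, DESeq2, limma-voom, 2 other filters, chromosome 6 genes left out, the replicate block and each library left out). Those of the other 6 lay between -0.11 and 0.20. ZNF107 was at 0.20 without PIG-LONA replicate 1 and turned to -0.03 without PIG-LONA replicate 2. The median of the 8 was between -0.0145 and 0.0562 with a library left out (the ends without PIG-LONA replicate 2 and replicate 1). The count of 1025 called genes was 473 with DESeq2, 334 without the low-count filter, 660 without chromosome 6 genes, and 466 to 2331 with a library left out (644 and 466 without PIG-EMPTY replicates 1 and 2, 2331 without PIG-LONA replicate 1). Among zinc finger genes of chromosome 19 it was 1 with DESeq2, 1 without the filter and 1 to 19 with a library left out. Among other zinc finger genes it was 6, 4 and 7 with DESeq2, without the filter and without chromosome 6 genes, and 8 to 34 with a library left out. Among corepressor genes it was 2 with library totals, 2 with DESeq2, 2 without the filter, 1 without chromosome 6 genes, and 0 to 9 with a library left out. Among neighbours it was 0 to 1 and among retrovirus-derived genes 0 to 2 with a library left out. Causes were not tested. Leaving out chromosome 6 removes genes that could be called, but calls on other chromosomes changed too. Genes called lower went from 558 to 441, although only 14 of the 558 lie on chromosome 6. With a library left out, the lone library of its group is assumed to vary like the other group.

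The replicate block called 1101 genes in all and 1 retrovirus-derived gene, against 0 without it. Same-numbered libraries did not deviate together (correlation 0.03 over 15918 genes), so the numbers were not taken as pairs.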
